A study of Mus musculus with 6 samples.

Results

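Hes1, a transcriptional repressor that Notch signalling switches on, was described here together with 8 other genes of the pathway in mouse BCR-ABL positive cell lines labelled as Cdk6 knockout or wild type. The 9 genes are the receptors Notch1 and Notch2, the DNA-binding factor Rbpj and its coactivator Maml1, and the targets or partners Hes1, Hes6, Hey1, Dtx1 and Nrarp. They were chosen by gene symbol from a table of 25965 rows, and the set was drawn up because Hes1 lay higher in each knockout line than in each wild type line. Of the 9 genes 7 had counts and passed the filter on low counts, and Hey1 and Dtx1 had 0 counts in all 6 libraries.

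RNA was sequenced from 3 Cdk6 knockout lines (KO1, KO2 and KO3) and 3 Cdk6 wild type lines (WT1, WT2 and WT3). Each line carries BCR-ABL, the fusion kinase of the Philadelphia chromosome, and was electroporated with a plasmid encoding Cas9 and GFP. The plasmid for the knockout lines also held guides against CDK6, and wild type lines received the control plasmid. GFP-positive cells were plated singly, so that a line is 1 clone, and loss of the CDK6 protein was checked by Western blot, per the labels. Whether lines share a parental culture is not given in the sources used here, and p-values measure only the spread between these clones.

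Notch receptors are cleaved when they meet a ligand on a neighbouring cell, first by ADAM proteases and then by gamma-secretase. The freed intracellular part enters the nucleus, joins RBPJ and a Mastermind protein such as MAML1, and turns RBPJ from a repressor into an activator of genes such as Hes1, Hey1, Nrarp and Dtx1. In early lymphoid cells Notch1 directs progenitors to the T lineage and away from the B lineage, while Notch2 is needed later, for marginal zone B cells.

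Transcript levels are given as CPM, counts scaled to a common library size by library total and TMM factor. Totals ran from 17859519 to 24108563 counts, and 3 counts, taken as the floor for reading a level, corresponded to 0.125 to 0.165 CPM. The targeted gene Cdk6 lay at 41.3, 75.0 and 39.0 CPM for KO1, KO2 and KO3, against 39.7, 45.6 and 55.9 CPM for WT1, WT2 and WT3 (log2 fold change 0.14 ± 0.29 SE, edgeR adjusted p = 0.90). Its RNA therefore did not separate the groups, and KO and WT name the libraries as labelled, also wherever a direction is given. Library KO2 stood apart: on the first principal component, with 67.9% of the variance, its score was 112.5, that of WT2 was 12.6, and the scores of the remaining 4 ran from -38.4 to -28.3. All 12 B lineage markers were above 1 CPM in every library, with sums of 4580 to 5589 CPM in KO and 4910 to 5197 CPM in WT.

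Promoter windows from RefSeq (GRCm38.p6, 250 bases before to 50 bases after the start site) matched 7 of the 9 genes, all but Hes1 and Hey1. The windows of 3 genes are printed: Notch1 and Nrarp, because their levels differed most between or within groups beside Hes1, and Rbpj, because of the matched genes it alone held the core of the RBPJ motif. For Rbpj the first of its windows is shown. Capitals mark matches, on either strand, to this core (TGGGAA) or to the N box bound by HES proteins (CACNAG). A forward and a reverse N box can overlap, and those at positions 248 and 250 of the Notch1 window do so across the start site.
Notch1, chr2:26503773-26504072, minus strand: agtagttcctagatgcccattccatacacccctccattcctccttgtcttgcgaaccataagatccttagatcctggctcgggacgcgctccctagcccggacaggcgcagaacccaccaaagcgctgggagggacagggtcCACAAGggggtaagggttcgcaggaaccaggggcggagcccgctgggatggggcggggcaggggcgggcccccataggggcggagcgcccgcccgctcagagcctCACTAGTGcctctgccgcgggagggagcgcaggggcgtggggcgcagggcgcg
Nrarp, chr2:25180508-25180807, plus strand: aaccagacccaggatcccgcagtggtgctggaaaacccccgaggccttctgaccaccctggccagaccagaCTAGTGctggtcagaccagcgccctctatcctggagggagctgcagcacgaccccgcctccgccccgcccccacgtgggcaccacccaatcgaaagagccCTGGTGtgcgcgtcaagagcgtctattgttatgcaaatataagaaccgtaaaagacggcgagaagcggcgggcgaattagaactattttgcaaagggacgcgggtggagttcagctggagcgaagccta
Rbpj, chr5:53590096-53590395, plus strand: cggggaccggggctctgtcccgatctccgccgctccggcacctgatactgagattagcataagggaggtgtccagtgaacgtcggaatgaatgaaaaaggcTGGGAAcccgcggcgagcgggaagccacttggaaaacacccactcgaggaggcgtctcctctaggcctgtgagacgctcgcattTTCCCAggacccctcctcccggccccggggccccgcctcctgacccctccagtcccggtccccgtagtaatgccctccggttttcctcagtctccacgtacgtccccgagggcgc
The RBPJ core stood at positions 102 and 186 of the Rbpj window, counted from 1 at its 5′ end, and the Notch1 and Nrarp windows held N boxes alone. Of all 32851 windows of this length 25.6% held the RBPJ core and 42.5% held an N box, so a match is common and says only that these letters are present.

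Hes1 (chromosome 16, 30065357 to 30067796) encodes a basic helix-loop-helix repressor. It had 53, 132 and 94 counts in KO1, KO2 and KO3, against 19, 8 and 9 counts in WT1, WT2 and WT3. These are 2.91, 6.76 and 4.44 CPM in the KO libraries and 0.793, 0.426 and 0.445 CPM in the WT libraries. Every KO library was above every WT library, as were 8.53% of all 10896 tested genes. This is the pattern that chose the gene set, and the values are a description with no test. In bulk RNA fewer cells of a type and less RNA per cell cannot be told apart, so a level is an average over the clone.

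The 95% Poisson intervals of Hes1, which cover counting error only, ran from 2.18 to 3.81 CPM in KO1, the lowest KO library, and from 0.477 to 1.24 CPM in WT1, the highest WT library. The mean of Hes1 was 4.70 ± 1.94 CPM in KO and 0.555 ± 0.206 CPM in WT (SD, n = 3 each), and its log2 fold change was 3.06 ± 0.47 (SE). Within KO the highest library, KO2, held 2.32 times the level of the lowest, KO1. Without KO2 the log2 fold change was 2.71, and without both KO2 and WT2 it was 2.56.

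**Figure D1:**
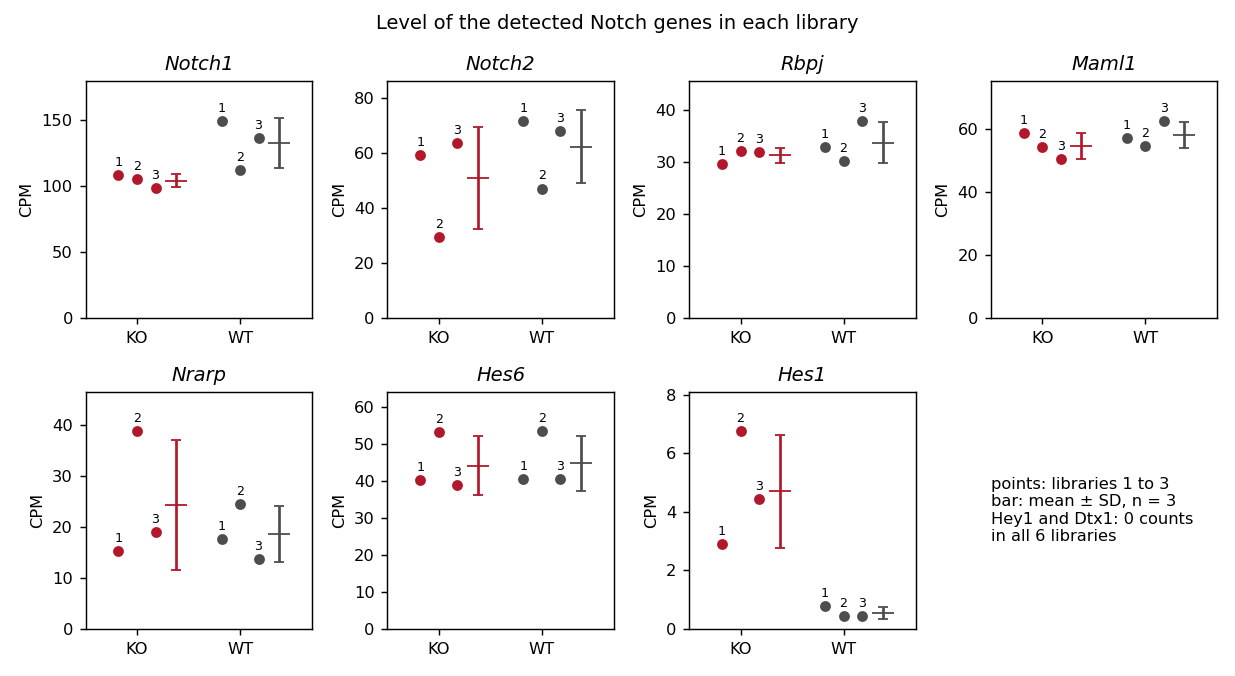
CPM (vertical axis, linear from 0) of the 7 detected genes in each library, with KO left of WT; points are libraries 1 to 3, and bars are the mean ± SD of 3 libraries. Hes1 lies at 2.91 to 6.76 CPM in KO and at 0.426 to 0.793 CPM in WT, while the groups overlap for the other genes apart from Notch1.

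Hes1 was the least abundant of the detected genes on average. Levels of different genes were compared per kilobase of annotated exon. The length was that of all exons of a gene joined over its isoforms, so a gene with many exons outside its main transcript reads lower. The annotation used for counting is not known, and the order below holds for this length alone. On this scale Hes6 was highest, with 24.4 ± 4.39 CPM per kilobase in KO and 24.7 ± 4.14 in WT (SD, n = 3). Maml1 (9.87 ± 0.739 in KO and 10.5 ± 0.742 in WT), Nrarp (9.42 ± 4.90 in KO and 7.23 ± 2.11 in WT) and Notch1 (7.29 ± 0.347 in KO and 9.30 ± 1.33 in WT) followed, and their ranges over libraries overlapped each other in that order. Notch2 (4.71 ± 1.72 in KO and 5.76 ± 1.23 in WT) lay apart from Notch1, but overlapped Rbpj (2.46 ± 0.109 in KO and 2.65 ± 0.308 in WT). Hes1 came last of the detected genes, at 2.31 ± 0.951 CPM per kilobase in KO and 0.272 ± 0.101 in WT, and its range overlapped that of Rbpj.

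The receptor Notch1 (chromosome 2, 26457902 to 26503822) lay at 107.9, 105.1 and 98.3 CPM for KO1, KO2 and KO3, against 149.4, 112.0 and 135.8 CPM for WT1, WT2 and WT3. All KO libraries were below all WT libraries, but the gap between KO1 and WT2 was within counting error, since the Poisson intervals were 103.2 to 112.8 CPM for KO1 and 107.2 to 116.9 CPM for WT2. The log2 fold change of Notch1 was -0.35 ± 0.12 (SE; 95% interval -0.64 to -0.06; edgeR quasi-likelihood test, adjusted p = 0.495 over all genes). It did not pass the threshold of 0.05, and its sign was negative in all 16 alternative fits (-0.46 to -0.25). Of all tested genes 11% had every KO library below every WT library, and Notch1 was 1 such gene among the 6 tested beside Hes1.

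Notch2 (chromosome 3, 98013538 to 98150367) is the receptor of marginal zone B cells. It lay at 59.3, 29.4 and 63.6 CPM for KO1, KO2 and KO3, against 71.6, 47.0 and 67.7 CPM for WT1, WT2 and WT3. KO2 held the lowest level and WT2 the next lowest, and the groups overlapped. The log2 fold change was -0.29 ± 0.33 (95% interval -1.10 to 0.52; edgeR adjusted p = 0.805), and without KO2 it was -0.01. Notch2 was lower in KO in each of the 3 same-numbered pairs, and the fit with the replicate number as a block gave -0.34 ± 0.14 (SE, edgeR adjusted p = 0.535). Without both KO2 and WT2 the log2 fold change was -0.18 ± 0.08 (SE). The labels do not pair libraries by number, and how many of all genes had 1 direction in all 3 pairs was not counted. Per kilobase of exon the ratio of Notch1 to Notch2 was 1.38, 2.70 and 1.17 in KO1, KO2 and KO3, against 1.58, 1.80 and 1.52 in WT1, WT2 and WT3, so Notch1 was the higher receptor in every library.

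The nuclear partners of the receptors differed little between libraries. Rbpj (chromosome 5, 53555779 to 53657445), which binds the DNA, lay at 29.8, 32.3 and 32.0 CPM for KO1, KO2 and KO3, against 32.9, 30.4 and 38.1 CPM for WT1, WT2 and WT3. Its log2 fold change was -0.11 ± 0.12 (95% interval -0.39 to 0.18; edgeR adjusted p = 0.797). Maml1 (chromosome 11, 50255634 to 50293131), the coactivator, lay at 58.7, 54.4 and 50.5 CPM for KO1, KO2 and KO3, against 57.2, 54.7 and 62.7 CPM for WT1, WT2 and WT3. Its log2 fold change was -0.09 ± 0.09 (95% interval -0.32 to 0.14; edgeR adjusted p = 0.784). For both genes the groups overlapped, and within each group the highest library held at most 1.25 times the lowest.

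Nrarp (chromosome 2, 25180758 to 25183339) is a direct Notch target whose protein binds the complex of RBPJ and Notch and dampens it. It lay at 15.2, 38.8 and 19.0 CPM for KO1, KO2 and KO3, against 17.7, 24.5 and 13.8 CPM for WT1, WT2 and WT3. KO2 was the highest library and WT2 the next, and the other 4 libraries of both groups lay between 13.8 and 19.0 CPM. The log2 fold change of Nrarp was 0.38 ± 0.41 (95% interval -0.64 to 1.41; edgeR adjusted p = 0.796), and without KO2 it turned to -0.12. Without both KO2 and WT2 it was 0.13, on the side of the value from all libraries.

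Hes6 (chromosome 1, 91411483 to 91414038), a family member known to counteract HES1, lay at 40.3, 53.2 and 38.8 CPM for KO1, KO2 and KO3, against 40.3, 53.4 and 40.4 CPM for WT1, WT2 and WT3. Here too KO2 and WT2 were the 2 highest libraries, and the other 4 lay within 38.8 to 40.4 CPM. The log2 fold change was -0.02 ± 0.18 (95% interval -0.46 to 0.42; edgeR adjusted p = 0.979). Per kilobase of exon Hes6 held 15.6, 8.87 and 9.84 times the level of Hes1 in KO1, KO2 and KO3, against 57.3, 141.1 and 102.3 times in WT1, WT2 and WT3.

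The classical targets Hey1 (chromosome 3, 8663359 to 8667038), a repressor related to HES1, and Dtx1 (chromosome 5, 120680203 to 120711867), a ubiquitin ligase of the pathway, had 0 counts in each of the 6 libraries. The 95% Poisson upper limit of a count of 0 was 0.154 CPM in WT1, the deepest library, and 0.203 CPM in KO1, the shallowest. Neither gene was detectable at this depth in either group.

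**Figure D2:**
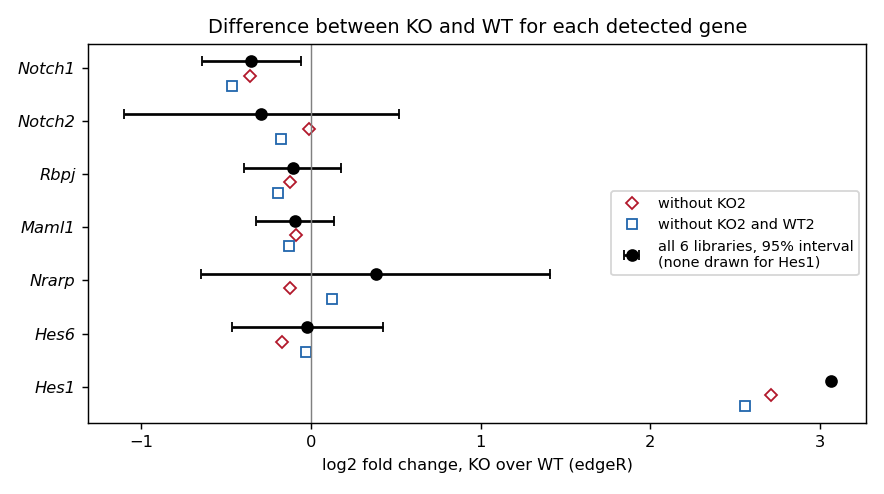
Log2 fold change of KO over WT (horizontal axis) for the 7 detected genes; filled points with bars are the edgeR estimate from all 6 libraries with its 95% interval, and open diamonds leave out KO2 and open squares leave out KO2 and WT2. No interval is drawn for Hes1, whose values chose the set. Hes1 lies at 3.06, the others lie between -0.35 and 0.38, and Nrarp lies at -0.12 without KO2 and at 0.13 without KO2 and WT2.

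By edgeR 0 of the 7 tested genes of the set passed the adjusted threshold, and 0% of all 10896 tested genes did. With no adjustment 1030 genes (9.45%) had a p under 0.05, among them Notch1. Without KO2 this count was 2080, and it was 472 without WT1, 573 without WT2 and 408 without WT3. The limma-voom fit called 0% as well, with 1041 genes (9.55%) under 0.05 before adjustment. DESeq2 called 218 of 11212 genes (1.94%), 0.705% of all as higher in KO, and of the set it called 1 gene, Hes1. Since the set was drawn up from the KO and WT values of Hes1, nothing is read from these counts.

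The rest of the pathway was followed through 81 further genes in lists by role, of which 80 had a row, 13 were at 0 in all libraries and 60 were tested. None of the 60 passed edgeR, and DESeq2 called 0 of 59 with an adjusted p. At an unadjusted p under 0.05 edgeR had 6 genes higher and 2 lower in KO, against 4.35% and 5.1% of all tested genes. This count of 8 was 9 without KO1, 18 without KO2, 5 without KO3, 3 without WT1, 2 without WT2 and 2 without WT3. Over all tested genes the count of 1030 was 1234, 2080, 954, 472, 573 and 408 in the same fits. Such counts are tallies per fit and need not hold the same genes. In 7 of the 60 genes (11.7%) all KO libraries were above all WT libraries and in 4 (6.67%) all were below, against 8.53% and 11% of all tested genes. The median log2 fold change of the 60 genes was 0.07, against 0.01 over all tested genes. Without KO2 edgeR still called none of these genes, whereas DESeq2 called 7 of 61, against 5.95% of all genes in that fit.

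Ligands were at 0 or low. Dll1, Jag1 and Dlk1 had 0 counts in all libraries. Dll4 lay at 0.644 ± 0.288 CPM in KO and 1.00 ± 0.206 CPM in WT, and Jag2 at 1.27 ± 0.777 CPM in KO and 1.66 ± 0.871 CPM in WT (SD, n = 3), with overlapping groups. The receptors Notch3 and Notch4 did not pass the filter on low counts, and the highest level of either in a library was 0.494 CPM, for Notch4 in KO1.

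Genes that mature and cleave the receptors were all detected. All 14 listed genes were tested, 12 with positive and 2 with negative log2 fold changes, and the median was 0.06. Of all 10896 tested genes 5748 were positive, with a median of 0.01. Among the 12, Ncstn lay at 1.56e-05, so its sign carries no weight. Adam10, the protease of the first cut, lay at 226.7 ± 11.1 CPM in KO and 216.7 ± 14.2 CPM in WT (log2 fold change 0.07 ± 0.08 SE). Psenen, a subunit of gamma-secretase, lay at 1.42 ± 0.288 CPM in KO and 1.74 ± 0.392 CPM in WT. Furin, which cleaves the precursor during maturation, was the 1 gene of this list with all KO libraries (30.8 to 35.5 CPM) above all WT libraries (25.3 to 27.3 CPM), at a log2 fold change of 0.31 ± 0.10 (edgeR adjusted p = 0.495). That is 7.14% of the list, against 8.53% of all tested genes.

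Among 7 coactivators, Maml2, a second Mastermind protein, lay at 29.5, 31.5 and 29.4 CPM for KO1, KO2 and KO3, against 24.2, 19.6 and 24.3 CPM for WT1, WT2 and WT3. The groups did not overlap, and the log2 fold change was 0.41 ± 0.12 (edgeR adjusted p = 0.482). The acetyltransferase gene Kat2b also had all KO above all WT libraries (28.6 ± 6.69 CPM in KO and 20.9 ± 0.384 CPM in WT). These 2 genes were 28.6% of the list, against 8.53% of all tested genes, and a share over so few genes is coarse. Kat2a (188.0 ± 13.6 CPM in KO and 211.1 ± 9.87 CPM in WT) and Ep300 (144.3 ± 16.7 CPM in KO and 128.6 ± 6.69 CPM in WT) had overlapping groups, but with library totals alone those of Kat2a did not. The median over the 7 coactivators was 0.17.

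Among 9 corepressors of RBPJ, Ctbp1 lay at 301.7 ± 20.5 CPM in KO and 344.9 ± 14.2 CPM in WT (log2 fold change -0.19 ± 0.07, edgeR adjusted p = 0.524), and its KO libraries were all below its WT libraries. Cir1 (5.66 ± 1.13 CPM in KO and 4.41 ± 0.0968 CPM in WT) had all above. Its gap lay between 104 counts in KO3 (4.92 CPM) and 108 counts in WT1 (4.51 CPM), and no Poisson interval was computed for it. Of the list 11.1% had all KO above and 22.2% all KO below, against 8.53% and 11% of all tested genes. Ncor1, the most abundant of the list, lay at 480.8 ± 48.6 CPM in KO and 455.6 ± 4.93 CPM in WT, and Bend6 at 1.58 ± 0.651 CPM in KO and 1.00 ± 0.209 CPM in WT. The median over the list was 0.09.

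Of 11 genes for turnover and endocytosis 10 were tested, and their median log2 fold change was 0.02. Dtx3l, a relative of Dtx1, lay at 68.7, 93.9 and 61.3 CPM for KO1, KO2 and KO3, against 53.5, 51.9 and 48.4 CPM for WT1, WT2 and WT3 (0.54 ± 0.17, edgeR adjusted p = 0.495). The ubiquitin ligase Itch also had all KO above all WT libraries (103.2 ± 11.5 CPM in KO and 83.4 ± 9.57 CPM in WT). Dtx3l and Itch were 20% of the 10 tested, against 8.53% of all tested genes. Dtx3 lay at 56.6 ± 8.20 CPM in KO and 45.3 ± 4.06 CPM in WT, and the most abundant gene, Mib1, at 224.2 ± 51.7 CPM in KO and 226.2 ± 44.7 CPM in WT. Dtx4 lay at 0.769, 14.0 and 7.52 CPM for KO1, KO2 and KO3, against 13.5, 37.3 and 22.3 CPM for WT1, WT2 and WT3. KO2 was above WT1, so the groups overlapped, and the log2 fold change was -1.71 ± 0.96 (edgeR adjusted p = 0.610). In each of the 3 same-numbered pairs Dtx4 was lower in the KO library, but the labels do not pair libraries by number. How many of all genes had 1 direction in all 3 pairs was not counted.

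Of the other HES and HEY genes, Hes2, Hes3, Hes7 and Hey2 had 0 counts in all libraries, Heyl had at most 0.0417 CPM, and Hes5, another Notch-driven repressor, lay at 2.50 ± 0.751 CPM in KO and 2.82 ± 0.497 CPM in WT. The TLE proteins are the corepressors that HES factors recruit, and 5 of 6 genes were tested. Tle3 lay at 218.5 ± 47.6 CPM in KO and 193.8 ± 15.1 CPM in WT, Aes at 195.3 ± 85.3 CPM in KO and 237.8 ± 33.4 CPM in WT, and Tle6 at 1.76 ± 0.538 CPM in KO and 2.73 ± 0.337 CPM in WT, with all KO below all WT libraries for Tle6 alone. That is 20% of the 5 tested, against 11% of all tested genes. The gap of Tle6 lay between 45 counts in KO2 (2.30 CPM) and 58 counts in WT1 (2.42 CPM), and no Poisson interval was computed for it. Tle1 lay at 13.0, 0.0512 and 23.0 CPM for KO1, KO2 and KO3, against 25.9, 16.8 and 22.5 CPM for WT1, WT2 and WT3. KO2 was below the floor of 3 counts, and KO3 was within the range of WT.

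**Figure D3:**
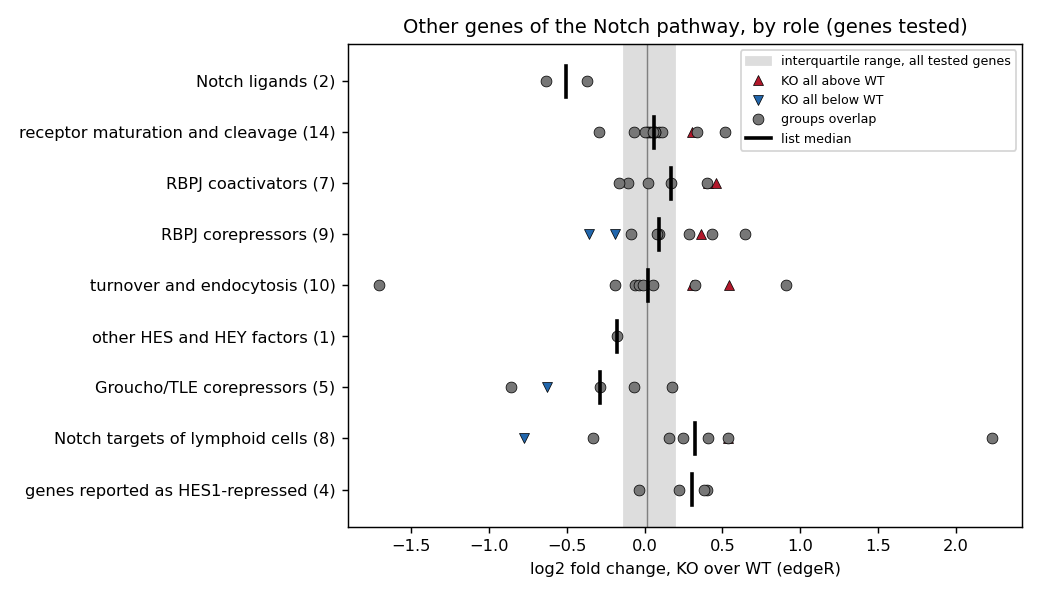
Log2 fold change of KO over WT (horizontal axis, edgeR) of the tested genes outside the set, 1 row per list with the number tested; triangles mark genes whose groups do not overlap, black bars the list medians, and the shaded band the interquartile range of all tested genes. List medians lie between -0.50 (2 ligands) and 0.33, and no gene passed the adjusted threshold.

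Targets that Notch drives in lymphoid cells included genes on either side of the WT level. Il7r, the receptor of a growth factor of early lymphocytes, lay at 346.2, 244.8 and 249.3 CPM for KO1, KO2 and KO3, against 193.2, 171.9 and 213.8 CPM for WT1, WT2 and WT3 (log2 fold change 0.54 ± 0.16, edgeR adjusted p = 0.486). Myc lay at 433.6 ± 113.9 CPM in KO and 365.6 ± 27.0 CPM in WT, with KO3 highest at 565.0 CPM. Il2ra lay at 32.1 ± 11.2 CPM in KO and 24.3 ± 7.36 CPM in WT and Ccnd3 at 2007 ± 182 CPM in KO and 1799 ± 134 CPM in WT, with overlapping groups. Of 12 genes of the list with a row 8 were tested, 6 of them with positive log2 fold changes, and the median was 0.33. Of all 10896 tested genes 5748 were positive. In the list 12.5% had all KO above all WT libraries and 12.5% all below, against 8.53% and 11% of all tested genes.

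Of 8 genes reported as repressed by HES1, 4 were at 0 in all libraries and 3 of the 4 tested had positive log2 fold changes. Of all 10896 tested genes 5748 did. Cdkn1b, an inhibitor of cyclin-dependent kinases, lay at 31.0, 50.0 and 40.7 CPM for KO1, KO2 and KO3, against 29.8, 32.0 and 30.7 CPM for WT1, WT2 and WT3 (log2 fold change 0.40 ± 0.18, edgeR adjusted p = 0.553). Cyld lay at 59.6 ± 17.8 CPM in KO and 45.8 ± 5.43 CPM in WT and Nr3c1 at 97.5 ± 20.5 CPM in KO and 100.1 ± 8.74 CPM in WT. The groups of all 4 tested genes overlapped, but with library totals alone those of Cdkn1b did not.

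The 7 genes that DESeq2 called without KO2 were Il7r (log2 fold change 0.63 ± 0.17, DESeq2 adjusted p = 0.0071), Dtx3 (0.43), Dtx3l (0.35), Cr2 (0.94), Mib2 (1.26), Ccnd1 (-0.28) and Tcf7 (-6.39), with DESeq2 adjusted p-values of 7.74e-06 for Cr2 to 0.0495 for Dtx3l. Cr2, Mib2, Ccnd1 and Tcf7 were chosen after their values were seen. Ccnd1, a cyclin, lay at 334.6, 51.0 and 364.7 CPM for KO1, KO2 and KO3, against 414.4, 422.2 and 445.0 CPM for WT1, WT2 and WT3. Each KO library thus lay below the lowest of WT, as in 11% of all tested genes. Cr2, a complement receptor of mature B cells, lay at 126.5, 35.0 and 130.9 CPM for KO1, KO2 and KO3, against 78.3, 55.1 and 68.7 CPM for WT1, WT2 and WT3. Mib2 was high in KO3 alone, at 61.6 CPM against 15.2 to 22.8 CPM in the other 5 libraries. Tcf7, a T lineage factor, had 0, 29.8 and 0.0473 CPM for KO1, KO2 and KO3, against 0.835, 4.95 and 0.594 CPM for WT1, WT2 and WT3, and its fitted value against KO libraries below the floor is no bound.

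Profiles over the 6 libraries were set beside that of Hes1, whose KO and WT values drew up the set. Since Hes1 separates the groups, a correlation with it largely follows the difference of a gene between KO and WT. The values are a description, and nothing is read from them. The Pearson correlation of log2 CPM with Hes1 was -0.70 for Notch1, -0.55 for Maml1, -0.49 for Notch2, -0.37 for Rbpj, 0.02 for Hes6 and 0.46 for Nrarp, and the Spearman values were -0.71, -0.54, -0.31, -0.09, -0.43 and 0.37. All points share the same 6 libraries, and of the other tested genes with at least 1 CPM 23.4% had a higher correlation with Hes1 than Nrarp had. The 5 genes most like Hes1 were Slc12a4 (Pearson 0.99, Spearman 0.94), Zfyve1 (0.99 and 1), Ttf1 (0.99 and 0.94), Braf (0.99 and 1) and Zfp874a (0.99 and 1). They were taken from 10448 genes, of which 210 had a Pearson correlation of at least 0.9. In each of these 5 genes every KO library was above every WT library, as in 8.53% of all tested genes. That follows from choosing them by likeness to Hes1. Slc12a4, a potassium-chloride cotransporter, lay at 18.1, 19.9 and 19.8 CPM for KO1, KO2 and KO3, against 13.2, 12.4 and 12.2 CPM for WT1, WT2 and WT3. Braf, a kinase of the ERK pathway, lay at 54.9, 63.1 and 60.8 CPM in the KO libraries, against 48.7, 42.9 and 45.0 CPM in the WT libraries. Likeness of pattern did not go with likeness of size, since the log2 fold changes of these 5 genes were 0.36 to 0.92.

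**Figure D4:**
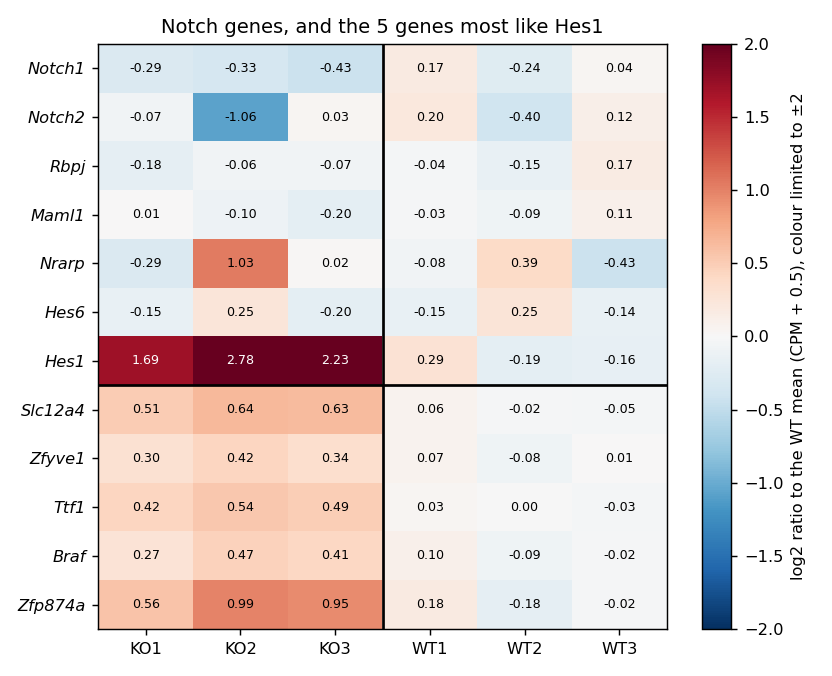
Log2 ratio of each library (columns, KO left of WT) to the WT mean, with an offset of 0.5 CPM, for the 7 detected genes above the line and the 5 genes most like Hes1 below it. Hes1 is at 1.69 to 2.78 in KO, while Nrarp (1.03) and Notch2 (-1.06) depart most in KO2.

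Levels of genes within 5 Mb of each gene of the set were compared with the WT mean, taking those with at least 5 CPM on average. Around Hes1 32 such genes had medians of 0.02, -0.09 and 0.07 on the log2 scale in KO1, KO2 and KO3, against 1.69, 2.78 and 2.23 for Hes1 itself. Around Notch2 the median of 65 genes in KO2 was -0.01, against -1.06 for Notch2. Around Nrarp the median of 80 genes in KO2 was 0.00, against 1.03 for Nrarp. A change confined to a few genes would not show in medians over such wide windows. The cause of the values of these 3 genes was not tested.

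Markers of cell types in which Notch acts were read beside these values. Of 12 T lineage markers 6 were at 0 in all libraries (Cd3e, Cd4, Cd8a, Cd8b1, Thy1 and Bcl11b), and the summed level was 6.30 to 81.4 CPM in KO and 65.4 to 71.7 CPM in WT. In every library but KO2 most of it was Lck, also expressed in early B cells. Lck lay at 80.2, 0.410 and 46.4 CPM for KO1, KO2 and KO3, against 64.8, 67.5 and 64.9 CPM for WT1, WT2 and WT3. In KO2 most of the sum was Zap70, at 4.61 CPM. Of 9 myeloid markers with a row 2 were at 0 (Elane and Ctsg), and the sums were 20.3 to 104.9 CPM in KO and 41.4 to 46.9 CPM in WT. Of 8 markers of stroma and endothelium 4 were at 0 (Col1a2, Col3a1, Cdh5 and Kdr), and the sums were 95.4 to 159.2 CPM in KO and 81.8 to 117.6 CPM in WT, mostly Pecam1. For none of these lists, B lineage included, did the sums separate KO from WT. KO2 had the lowest T lineage sum, with Lck at 0.410 CPM, and the highest myeloid sum, of which Fcgr3 made 88.4 CPM. Single myeloid markers did not share a direction. Itgam lay at 28.9, 0.256 and 4.73 CPM for KO1, KO2 and KO3, against 4.76, 1.17 and 3.41 CPM for WT1, WT2 and WT3. Its groups overlapped, and its log2 fold change was 1.85 ± 1.44 (SE). Lyz2, the gene of lysozyme, lay at 12.2, 15.8 and 14.7 CPM for KO1, KO2 and KO3, against 38.9, 27.2 and 37.1 CPM for WT1, WT2 and WT3. All KO libraries were below all WT libraries for Lyz2 (log2 fold change -1.27 ± 0.19 SE, edgeR adjusted p = 0.479, DESeq2 adjusted p = 1.15e-05), as for 11% of all tested genes. Cd14 did not pass the filter on low counts. It had 0, 0 and 8 counts in KO1, KO2 and KO3, against 34, 11 and 8 counts in WT1, WT2 and WT3. Its CPM was at most 0.378 in KO and at least 0.396 in WT, but KO3 and WT3 held the same count. The part of these marker levels in the values of the Notch genes was not tested.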

How the data were processed

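The authors deposited raw counts by gene symbol for the 6 libraries. The build GRCm38 and the tools STAR, Trim Galore and DESeq2 are named in the submitters' processing notes. The sources used here do not give the counter, annotation or strand setting. RefSeq coordinates are of the same build. GENCODE M21 places antisense or overlapping transcripts at Notch1, Notch2, Rbpj, Maml1 and Nrarp, and none at Hes1, Hes6, Hey1 or Dtx1. Reads in the shared bases could not be told apart. Opposite Notch1, 0610009E02Rik and Gm13568 had rows of their own, at up to 0.331 and 0.0532 CPM, and the other overlapping transcripts had no row. The 66 rows that repeat a symbol were kept.

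From these counts edgeR 4.0.16 in R 4.3.3 was fitted over all 6 libraries (TMM, filterByExpr, robust quasi-likelihood F test, two-sided, Benjamini-Hochberg adjusted p under 0.05 over 10896 genes). SE and 95% intervals came from the F statistic. CPM used the library total times the TMM factor; for correlations log2 CPM had a prior count of 2. Alternatives were DESeq2 1.42.0, limma-voom (limma 3.58.1), RLE factors or totals alone, 2 other filters, a fit that was not robust, a block for replicate number, and leaving out libraries. The fits were also run on simulated counts, drawn around a common mean per gene with set changes. The simulation held no outlying library such as KO2, so it cannot show how the fits behave on these data. Members and lists were chosen with earlier results of these data known. Named pathway genes were, per list, up to 4 with the smallest edgeR p and the most abundant, some of which are not reported here; the 5 genes most like Hes1 were those of at least 1 CPM with the highest Pearson correlation. Deviations from group means correlated at 0.33 for KO1 and WT1, 0.64 for KO2 and WT2 and 0.46 for KO3 and WT3, above the criterion of 0.1 for pairing. They also correlated at 0.36 for KO1 and WT3 and 0.41 for KO3 and WT1, so that KO1 was closer to WT3 than to WT1. The labels name no shared culture.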

Additional observations from a re-analysis of the deposited data

How the results depend on the processing

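The log2 fold change of Hes1 ran from 2.56 to 3.42 over 16 alternatives, against 3.06 in the main result; leaving out 1 library gave values from 2.71 to 3.42. Those of Notch1, Notch2, Rbpj and Maml1 were negative in all 16 alternatives, but leaving out 1 library moved Notch2 between -0.48 (without KO3) and -0.01 (without KO2), Rbpj between -0.18 (without WT2) and -0.0068 (without WT3), Maml1 between -0.15 (without KO1) and -0.03 (without WT3), and Notch1 between -0.46 (without WT2) and -0.25 (without WT1). Nrarp turned to -0.12 without KO2, by edgeR and by DESeq2, and was 0.13 without both KO2 and WT2, and Hes6 (-0.02) turned to 0.04 without KO1, 0.06 without KO3 and 0.13 without WT2; over the 6 fits that left out 1 library Nrarp ran from -0.12 to 0.63 and Hes6 from -0.17 to 0.13. Cdk6 (0.14) turned to -0.22 without KO2, to -0.23 in DESeq2 without KO2, and to -0.24 without both WT2 and KO2; leaving out 1 library gave -0.22 to 0.31. The cause was not tested. DESeq2 called 218 genes (1.94%) and, without KO2, 684 (5.95%), against 0 by edgeR. The 1 gene of the set called in each DESeq2 fit was Hes1, whose values drew up the set, so nothing is read from it. Of the other pathway genes, 7 were called by DESeq2 without KO2 and 0 in every other alternative. With the replicate number as a block, which pairs libraries by number, edgeR again called 0 genes and 0 of the set, and the log2 fold changes were 3.02 for Hes1, -0.34 for Notch1, -0.34 for Notch2 and 0.30 for Nrarp; the block changed no call. Counts of 8 to 19 for Hes1 in WT limit the precision of its fold change.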
